A study of Mus musculus with 6 samples.

Results

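Transcripts of 10 core circadian clock genes, Clock, Npas2, Per1, Per2, Per3, Cry1, Cry2, Nr1d1, Nr1d2 and Dbp, were compared in the paraventricular thalamus of mice with and without chronic constriction injury. The genes were taken by their symbols from a table of 21959 genes, where each was listed once. Chronic constriction injury (CCI) is a neuropathic pain model in which a peripheral nerve is tied loosely, and the paraventricular thalamus is a midline thalamic nucleus. The nucleus is named in the design text, while the tissue label says brain. All mice were labelled wild type (WT). There were 3 libraries labelled with the treatment CCI (replicates 1 to 3) and 3 labelled with no treatment (PVT_WT, replicates 4 to 6, called control here), and no sham operation was named. The design text gave 30 mice per group but not how many went into a library. The p-values therefore describe the variation among these 6 libraries, some of which may be technical. Strain, sex, age, days after injury and the hour of tissue collection were not given in the labels used here.

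The circadian clock is a feedback loop of transcription that runs in most cells. CLOCK, or its relative NPAS2, pairs with BMAL1 (gene Arntl) and drives genes that carry E-box elements, among them the Per and Cry genes, Nr1d1, Nr1d2 and Dbp. The PER and CRY proteins then repress CLOCK and BMAL1, while the nuclear receptors REV-ERB alpha and beta (Nr1d1 and Nr1d2) repress Arntl and other genes through ROR elements, and DBP acts on D-box elements. In mouse tissues the transcripts of Per1, Per2, Per3, Cry2, Nr1d1, Nr1d2 and Dbp are known to peak between about midday and early night. Those of Clock, Npas2 and Cry1, where they cycle, peak from late night to around dawn. The first set is called the evening-phase group below and the second the dawn-phase group. Genes of the evening-phase group do not all peak at the same hour, Nr1d1 and Dbp being earlier than Per1 and Per2. How strongly each gene cycles in this nucleus cannot be seen here, so the groups are names taken from other tissues and not measured phases.

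The deposited counts summed to between 7989139 and 10529886 in the CCI libraries and between 12337448 and 15438268 in the control libraries. Control replicate 5 stood apart, with 20.7% of its counts in its top 50 genes, where control replicates 4 and 6 had 14.2% and 14.5%. Some markers of brain regions and cell types also moved with the groups. For scale, 27.0% of all tested genes rose and 25.3% fell in the test described below. Of 8 markers of midline thalamus neurons, the region that the design text names, 7 fell and none rose, with a summed level of 1520 to 2181 CPM (scaled counts-per-million units) in CCI against 5217 to 7788 in control. All 7 tested markers of 8 for hippocampal and cortical neurons rose (166 to 206 against 59.8 to 77.3 CPM), as did 4 of 6 oligodendrocyte markers (17427 to 23074 against 6700 to 13494 CPM) and 4 of 4 for GABAergic neurons (102 to 357 against 47.8 to 74.5 CPM). Of 6 habenula markers 3 fell (183 to 474 against 430 to 1529 CPM), and of 6 astrocyte markers 2 rose and 1 fell. In the lists for microglia, ependyma and choroid plexus, and endothelium, 1 of 4 markers rose in each, and 1 endothelial marker fell; the ependyma and choroid plexus list summed to 1968 to 2820 CPM in CCI and ranged from 280 to 4097 in control. Markers of the suprachiasmatic nucleus, the hypothalamic pacemaker, summed to 8.31 to 17.1 CPM in CCI and 5.69 to 7.09 in control. Of the 4 tested Lhx1 rose, Grp fell, and Vip and Avp did not pass. Lhx1, singled out after its values were seen, was at 8.62, 4.11 and 8.01 CPM in CCI and 0.268, 0.236 and 0.299 CPM in control. Without it the sums were 2.80, 4.20 and 9.09 CPM in CCI and 6.34, 6.86 and 5.39 in control, and the groups overlapped. Nms, Six6 and Prok2 of that list had too few counts to be tested. No marker was at 0 in all libraries. What part these markers have in the results below was not tested, and in bulk tissue fewer cells of a type and less RNA per cell cannot be told apart.

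Of the 10 clock genes, Clock, Per1, Per2 and Cry2 rose in CCI, Nr1d1 and Nr1d2 fell, and Per3, Cry1, Npas2 and Dbp did not pass the test. All 10 passed the filter on low counts, with 728 (Npas2) to 30585 (Per3) counts over the 6 libraries. The test was edgeR's quasi-likelihood test over 14259 genes, with a threshold of 0.05 on the adjusted p. Changes were widespread in these libraries: 52.3% of all tested genes passed, 27.0% as higher and 25.3% as lower. The 6 calls among 10 clock genes, 4 higher and 2 lower, lie near those shares, so the number of calls does not set the clock genes apart. Their median log2 fold change was 0.43, against 0.06 over all tested genes. For 6 of the 10 the CPM ranges of CCI and control did not overlap, as held for 63.0% of all tested genes. The scale mattered for the lower calls. With the deposited FPKM (counts scaled by gene length and by the library total) tested by limma as log2(FPKM + 1), 6 clock genes were higher (Npas2 and Cry1 in addition) and none was lower. On that scale 83.2% of all calls were higher, against 51.6% in the edgeR fit, and the median gene stood at 0.42.

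**Figure D1:**
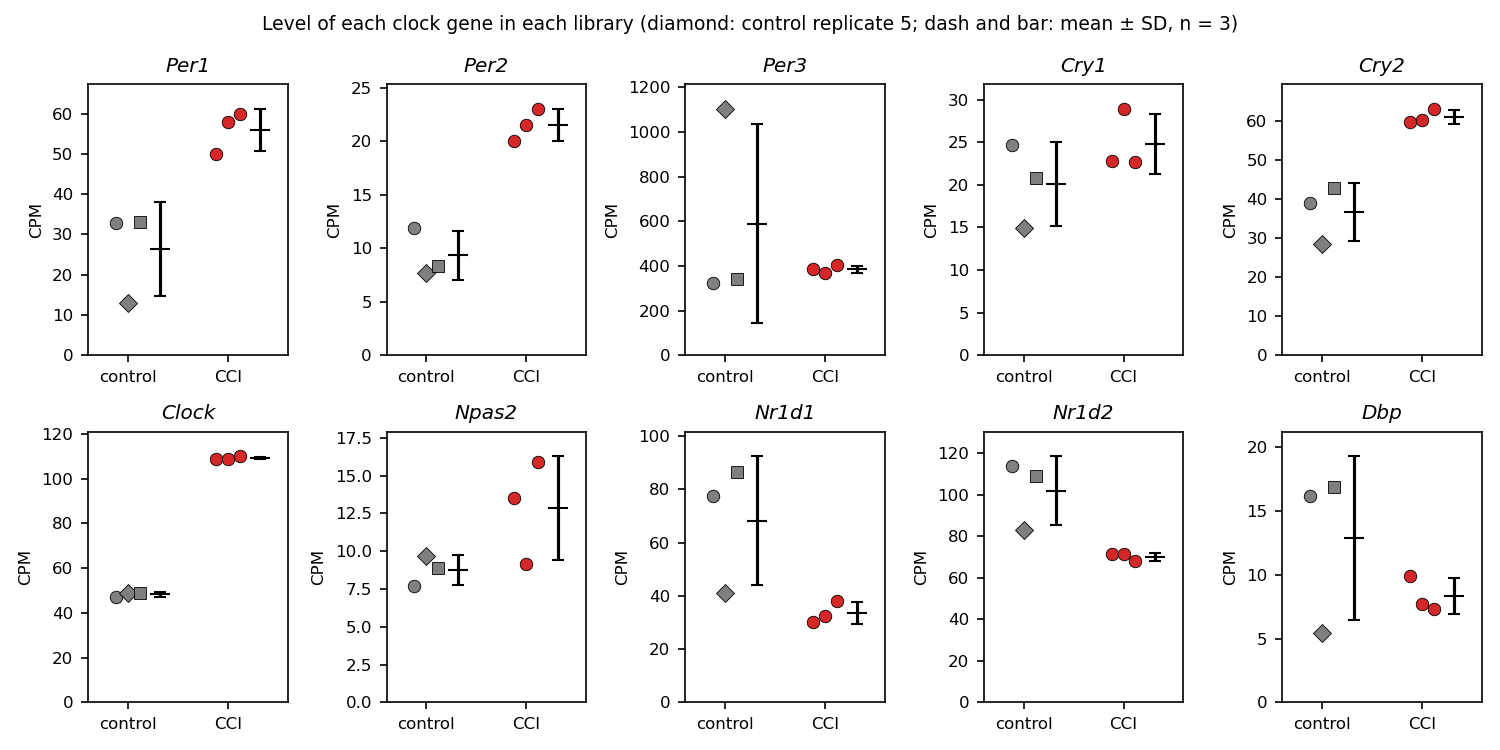
TMM-scaled CPM (linear axes from 0) of each of the 10 clock genes in the 3 control (grey) and 3 CCI (red) libraries, with the mean ± SD beside the points; circle, diamond and square are control replicates 4, 5 and 6. Clock lies at 109 to 110 CPM in CCI and 47.2 to 48.9 in control, while control replicate 5 lies far from the other controls for Per1, Per3, Nr1d1 and Dbp.

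The DNA around the starts of these genes was examined for the elements named above. RefSeq promoter windows (GRCm38.p6, 250 bases before to 50 after a start) were at hand for 9 of the 10 genes, all but Per2. Both strands were searched for the E-box CACGTG, the E'-box CACGTT, the D-box TTATGTAA or TTACGTAA, the cyclic AMP response element (CRE) TGACGTCA and the ROR/REV-ERB core AGGTCA; none of these holds another. The windows of Per1 and Cry1 held an E-box, which 7.15% of all 32851 windows in the table hold. Those of Cry1, Cry2 and Nr1d1 held an E'-box (4.68% of all windows), Per3 held D-boxes (1.06% of windows hold at least 1), and Clock, Per1 and Nr1d2 held a ROR/REV-ERB core (16.3%). None held a CRE (1.79%), and no motif was found for Npas2 or Dbp, which says only that these letters are not in these windows. The percentages are per window, while a gene was counted with a match at any of its starts. Clock and Per1 had more than 1 annotated start, with matches only at start 3 for Clock and start 1 for Per1. The Per1 sequence below is that of start 1. The 250 bases before the start are shown for 3 genes that passed the test, Per1 with the E-box and Cry2 and Nr1d1 with the E'-box, since Per1 and Cry2 rose where Nr1d1 fell. Only Per1 met the rule for printing, which asked for a gene that passed the test and held an E-box, D-box or CRE match before its start, and the others were added after their values were seen. They are given 5′ to 3′ on the gene's strand, with motif matches in capitals (AACGTG and TGACCT are CACGTT and AGGTCA read on the other strand). They lie at chr11:69098699-69098948 (plus strand), chr2:92434070-92434319 (minus strand) and chr11:98775378-98775627 (minus strand).
Per1: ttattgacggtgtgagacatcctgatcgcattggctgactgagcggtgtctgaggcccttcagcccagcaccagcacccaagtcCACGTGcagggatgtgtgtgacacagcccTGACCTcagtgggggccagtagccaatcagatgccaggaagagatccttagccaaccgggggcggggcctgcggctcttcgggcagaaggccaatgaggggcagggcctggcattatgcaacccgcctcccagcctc
Cry2: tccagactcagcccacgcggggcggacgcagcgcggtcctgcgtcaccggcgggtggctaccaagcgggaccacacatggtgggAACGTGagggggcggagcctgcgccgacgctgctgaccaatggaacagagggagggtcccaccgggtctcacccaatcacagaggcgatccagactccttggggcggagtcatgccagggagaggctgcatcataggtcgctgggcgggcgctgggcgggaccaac
Nr1d1: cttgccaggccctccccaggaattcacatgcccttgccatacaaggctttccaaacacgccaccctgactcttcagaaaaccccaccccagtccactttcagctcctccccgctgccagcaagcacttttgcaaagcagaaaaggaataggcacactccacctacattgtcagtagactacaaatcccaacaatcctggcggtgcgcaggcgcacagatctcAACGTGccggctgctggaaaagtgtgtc
The E-box of Per1 begins 166 bases before the start and the E'-boxes of Cry2 and Nr1d1 166 and 28 bases before it. A match is a run of letters and not a shown binding site.

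**Figure D2:**
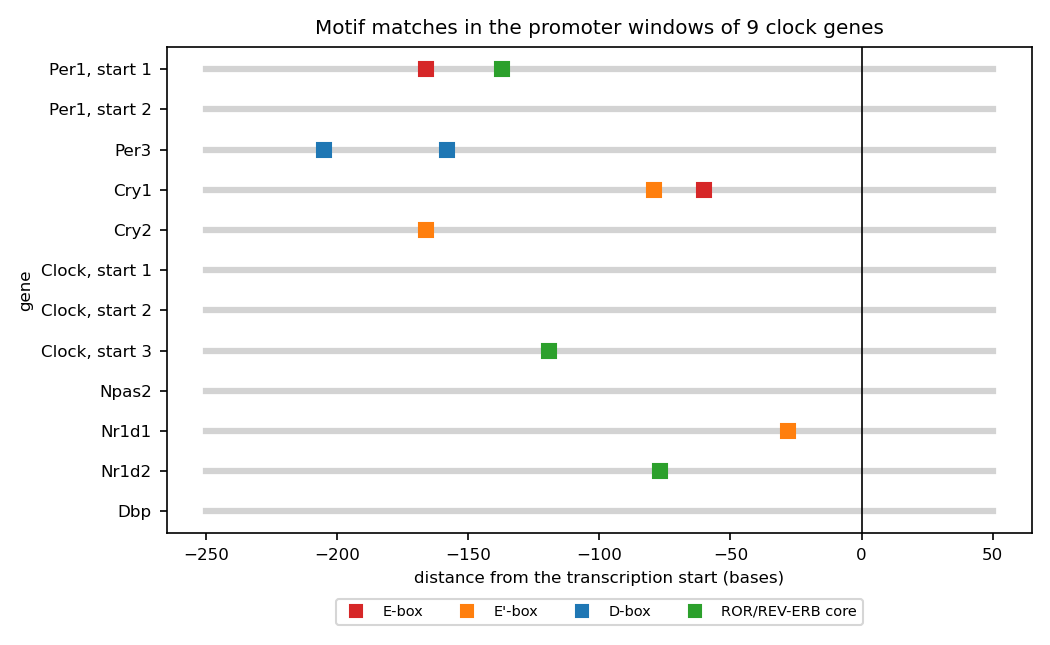
Positions of motif matches (squares) along the promoter windows of 9 clock genes, in bases from the transcription start, with 1 row for each annotated start. The E-box or E'-box matches lie upstream in Per1, Cry1, Cry2 and Nr1d1, and the Per3 window has D-box matches 205 and 158 bases before the start.

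The activator gene Clock had the least spread of the 10. It encodes a basic helix-loop-helix subunit that binds E-boxes together with BMAL1, and lies on chromosome 5 (76357715 to 76452639, GRCm39). Clock was at 109, 109 and 110 CPM in the CCI libraries and at 47.2, 48.8 and 48.9 CPM in the control libraries. The groups were far apart and control replicate 5 lay among the other controls. Clock rose 2.26-fold, from 48.3 ± 0.964 to 109 ± 0.910 CPM (SD, n = 3; log2 fold change 1.18 ± 0.14 SE, adjusted p = 0.000336). None of the 15 alternatives ended the call, and the log2 fold change ran from 0.63 to 1.74. The lowest was with the trend on gene length and GC content removed (adjusted p under that setting 0.00613), and Clock is, at 13727 bp, the longest of the 10 genes in the table. Npas2 (chromosome 1, 39232812 to 39402317), whose protein can take the place of CLOCK in the forebrain, was at 13.5, 9.13 and 15.9 CPM in CCI and 7.67, 9.69 and 8.90 in control. The groups overlapped, because CCI replicate 2 lay below control replicate 5. Npas2 did not pass (0.56 ± 0.25, adjusted p = 0.0948), but it did without CCI replicate 2 (0.75, adjusted p = 0.0456).

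Of the 3 Period genes, which encode the PER repressors, Per1 and Per2 rose and Per3 did not pass. Per1 (chromosome 11, 68986043 to 69000786) was at 49.9, 57.9 and 59.8 CPM in CCI and at 32.9, 13.0 and 33.2 CPM in control. All CCI libraries were above all controls, and control replicate 5 was the lowest. Per1 rose 2.11-fold (55.9 ± 5.24 against 26.4 ± 11.6 CPM, SD, n = 3; 1.08 ± 0.32 SE, adjusted p = 0.0203). The call was lost without CCI replicate 2 (adjusted p = 0.0583) or CCI replicate 3 (adjusted p = 0.0701), and with the length and GC trend removed (0.34, adjusted p = 0.208). Without control replicate 5 it was 0.73 and passed. Per2 (chromosome 1, 91343704 to 91387046) was at 20.0, 21.5 and 23.0 CPM in CCI and at 11.9, 7.68 and 8.38 CPM in control, again with no overlap. It rose 2.31-fold (21.5 ± 1.46 against 9.31 ± 2.24 CPM, SD, n = 3; 1.21 ± 0.22 SE, adjusted p = 0.00225). Per2 passed in all 15 alternative settings, at log2 fold changes of 0.64 to 1.75.

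Per3 (chromosome 4, 151088109 to 151129122) was the most abundant of the 10, and its control libraries disagreed. It was at 384, 370 and 402 CPM in CCI and at 324, 1102 and 339 CPM in control. Control replicate 5 was 3.33 times the mean of the other controls, and the CCI libraries lay between it and them. The log2 fold change of Per3 was -0.61 ± 0.44 (adjusted p = 0.275). It was 0.20 without control replicate 5 (adjusted p = 0.187) and 0.23 on log2(FPKM + 1) (adjusted p = 0.589), or -0.18 relative to the median gene. In the table's coordinates Per3 lies entirely within Camta1, a gene on the same strand. Camta1 was at 220 to 230 CPM in CCI and 222 to 262 in control, and did not pass (-0.08 ± 0.16, adjusted p = 0.687).

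The cryptochrome genes encode the partners of PER that carry most of the repression of CLOCK and BMAL1. Cry2 (chromosome 2, 92233991 to 92264388) was at 59.7, 60.1 and 63.0 CPM in CCI and at 38.9, 28.5 and 42.9 CPM in control, without overlap. It rose 1.65-fold (60.9 ± 1.81 against 36.8 ± 7.46 CPM, SD, n = 3; 0.73 ± 0.18 SE, adjusted p = 0.00967). With the length and GC trend removed it was at 0.11 and did not pass (adjusted p = 0.552). Cry1 (chromosome 10, 84967564 to 85020928), the late-phase cryptochrome gene, was at 22.8, 28.9 and 22.7 CPM in CCI and at 24.7, 14.9 and 20.8 CPM in control. The groups overlapped and the gene did not pass (0.30 ± 0.22 SE, adjusted p = 0.283).

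The REV-ERB genes, which encode the repressors of the second loop, fell. Nr1d1 (chromosome 11, 98658758 to 98666159) was at 30.4, 32.3 and 38.1 CPM in CCI and at 77.4, 41.0 and 86.6 CPM in control. Control replicate 5 lay just above the highest CCI library. Nr1d1 fell 2.03-fold (33.6 ± 4.04 against 68.3 ± 24.1 CPM, SD, n = 3; -1.02 ± 0.27 SE, adjusted p = 0.012). The call held without each library in turn, at log2 fold changes of -1.31 (without control replicate 5) to -0.83, and was lost on log2(FPKM + 1) (-0.34, or -0.76 relative to the median gene, adjusted p = 0.409). It shares 1075 bp with Thra on the opposite strand, whose counts rose (0.58 ± 0.18, adjusted p = 0.027). No strand setting is stated, so reads of the shared stretch cannot be told apart. Nr1d2 (chromosome 14, 4230569 to 4265642) was at 71.4, 71.3 and 68.0 CPM in CCI and at 114, 83.2 and 109 CPM in control, with no overlap. It fell 1.46-fold (-0.54 ± 0.17 SE, adjusted p = 0.0236). That call was lost without any one library other than control replicate 5 (adjusted p from 0.0591 to 0.0778), with the length and GC trend removed (-0.44, adjusted p = 0.0855) and on log2(FPKM + 1), where the value was 0.07 (adjusted p = 0.815), or -0.35 relative to the median gene. With abundance added to the length and GC trend it was 0.01 (adjusted p = 0.967).

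Dbp (chromosome 7, 45354512 to 45359627), a D-box factor gene and one of the widest-swinging output genes of the clock in many tissues, was low. It was at 9.92, 7.67 and 7.32 CPM in CCI and at 16.2, 5.44 and 16.9 CPM in control. Control replicate 5 was below all CCI libraries and the other controls were above them. Dbp did not pass in all libraries (-0.64 ± 0.39, adjusted p = 0.195). Without control replicate 5 it was at -1.02 and passed (adjusted p = 0.00131), and it also passed with the length and GC trend removed (-1.01, adjusted p = 0.0214). On log2(FPKM + 1) it was at 0.04 (adjusted p = 0.931), or -0.37 relative to the median gene. Dbp shares 737 bp with Sphk2 on the opposite strand, which did not pass (0.48 ± 0.31, adjusted p = 0.215).

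**Figure D3:**
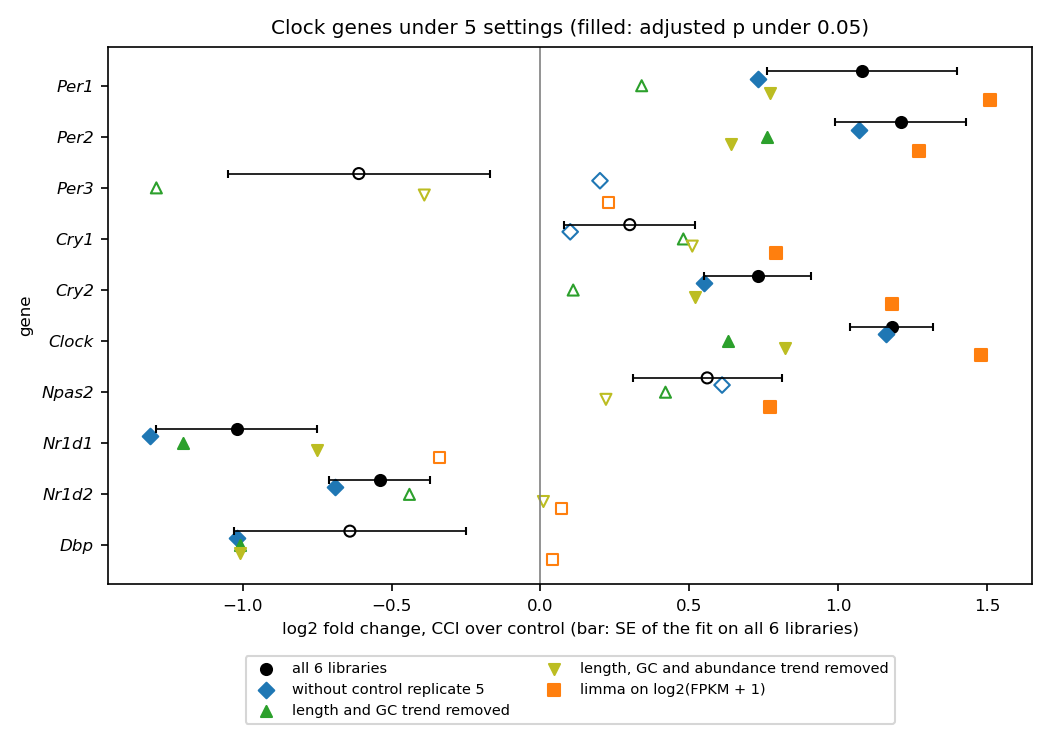
Log2 fold change (CCI over control) of the 10 clock genes in the fit on all 6 libraries (black, bar: SE) and under 4 alternatives; filled symbols have an adjusted p under 0.05. Clock and Per2 are filled under all of them, Per3 crosses 0 without control replicate 5, and on log2(FPKM + 1) Nr1d2 and Dbp sit at 0.07 and 0.04.

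Genes of the evening-phase group, which differ in their known peak hours, did not move in 1 direction. In the evening-phase group 3 of 7 rose (Per1, Per2 and Cry2), 2 fell (Nr1d1 and Nr1d2) and 2 did not pass, with a median of -0.54. In the dawn-phase group 1 of 3 rose (Clock) and 2 did not pass, with a median of 0.56. Of all tested genes 27.0% rose and 25.3% fell, so these counts do not set either group apart. The mean log2 CPM of the evening-phase genes exceeded that of the dawn-phase genes by 0.54, 0.61 and 0.52 in the CCI libraries and by 1.25, 0.85 and 1.22 in the control libraries. The CCI libraries were the lower, without overlap. Taken singly, 63.0% of all tested genes had CPM ranges that did not overlap. That share is not a base rate for a difference between 2 group means, for which none was computed. The evening-phase mean itself overlapped (5.55, 5.55 and 5.61 in CCI, 5.62, 5.11 and 5.60 in control). The dawn-phase mean did not (5.01, 4.94 and 5.09 against 4.38, 4.26 and 4.38). The difference thus lay mainly in the 3 genes of the dawn-phase group, of which only Clock passed. Arntl and Nfil3, described below, are outside that group but are known to cycle in opposite phase to Nr1d1 and Dbp. Both fell in the edgeR test (Arntl -0.84, adjusted p = 0.0311, and Nfil3 -1.29, adjusted p = 0.01). The higher dawn-phase mean therefore does not stand for all genes of that phase. The mean log2 fold change of the evening-phase genes minus that of the dawn-phase genes was -0.65. That value averages over genes of opposite sign within the evening-phase group, and no test was made of it. With the length and GC trend removed it was -0.90, and -0.45 on log2(FPKM + 1).

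The split within the evening-phase group can be restated as ratios of counts within a library, where no scaling between libraries enters. These pairs were chosen after the values were seen, and are a description without a test. They come from the same counts as the calls above and add no separate evidence. The share of all gene pairs that separate the groups was not computed. For each Per1 count there were 0.608, 0.558 and 0.638 Nr1d1 counts in the CCI libraries and 2.35, 3.15 and 2.61 in the control libraries, a 4.47-fold lower ratio in CCI. Control replicate 5, where both genes were low, lay with the other controls in this ratio. The log2 fold change of Nr1d1 minus that of Per1 was between -2.19 and -1.52 over the edgeR fit and its 15 alternatives. The ratio of Dbp to Per1 was 0.199, 0.132 and 0.122 in CCI and 0.491, 0.418 and 0.509 in control, 3.19-fold lower in CCI. The ratio of Per2 to Per1 was 0.402, 0.372 and 0.384 in CCI and 0.360, 0.591 and 0.252 in control, and the groups overlapped. Other pairs were examined besides those with Arntl, given below. Nr1d1 to Per2, Cry1 to Cry2, Npas2 to Clock and Dbp to Tef were lower in CCI without overlap. Dbp to Nr1d1, Nr1d2 to Nr1d1 and Clock to Per1 overlapped.

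The partners CLOCK and BMAL1 were also split. Arntl was at 30.3, 33.5 and 24.4 CPM in CCI and at 60.3, 31.3 and 65.5 CPM in control. Control replicate 5 lay within the CCI libraries. Arntl fell (-0.84 ± 0.27 SE, adjusted p = 0.0311), and the call was lost without any one library other than control replicate 5 (adjusted p from 0.0543 to 0.114) and on log2(FPKM + 1) (-0.16, adjusted p = 0.674). The ratio of Arntl to Clock counts was 0.277, 0.309 and 0.221 in CCI and 1.28, 0.642 and 1.34 in control, 3.87-fold lower in CCI and without overlap. Arntl and its repressor gene Nr1d1, which are known to cycle in opposite phase, both fell here. Their ratio was 0.997, 1.04 and 0.640 in CCI and 0.780, 0.764 and 0.757 in control, and the groups overlapped.

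**Figure D4:**
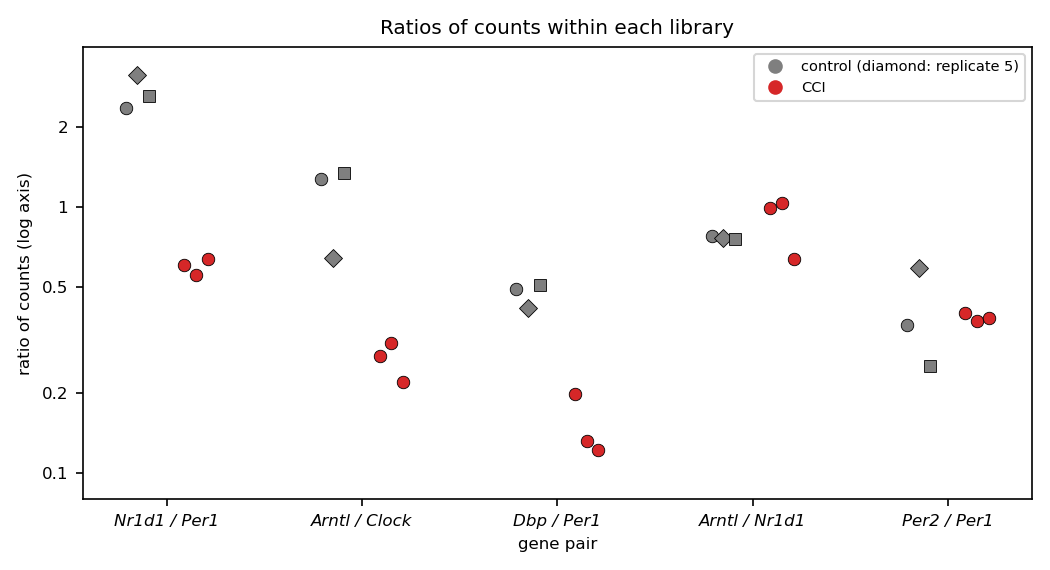
Ratio of the counts of a pair of clock genes within each library (log axis), for the 3 control (grey) and 3 CCI (red) libraries; the diamond is control replicate 5. Nr1d1 to Per1, Arntl to Clock and Dbp to Per1 separate the groups, and Arntl to Nr1d1 and Per2 to Per1 do not.

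Levels between genes were compared per length, as deposited FPKM. In control the order was Per3 (46.5 ± 27.9 FPKM, SD, n = 3), Nr1d1 (18.7 ± 8.33), Nr1d2 (15.7 ± 4.51), Cry1 (5.04 ± 1.83), Cry2 (4.84 ± 1.52), Per1 (3.98 ± 2.08), Dbp (3.66 ± 2.09), Clock (2.87 ± 0.376), Npas2 (1.48 ± 0.116) and Per2 (1.32 ± 0.467). Only Per3, Nr1d2 and Clock had a control range that lay wholly above that of the next gene. In CCI the order of levels was Per3 (49.4 ± 2.52 FPKM), Nr1d2 (16.0 ± 0.508), Nr1d1 (13.4 ± 1.61), Per1 (12.2 ± 1.03), Cry2 (11.9 ± 0.401), Clock (9.80 ± 0.205), Cry1 (9.14 ± 1.16), Per2 (4.52 ± 0.285), Dbp (3.42 ± 0.627) and Npas2 (3.30 ± 0.910). Per1 and Cry2 had ranges that overlapped with each other, as did Nr1d1 and Per1, Clock and Cry1, and Dbp and Npas2. Clock stood 8th of the 10 in control and 6th in CCI, and Per1 6th and 4th.

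Other genes of the clock were examined from lists by role. Of 32 such genes, all tested, 8 rose, 12 fell and 12 did not pass, with a median of -0.13. Over all tested genes 27.0% rose and 25.3% fell, so these counts do little to set the related genes apart. On log2(FPKM + 1) 13 were higher and 2 lower; Rora, Nfil3, the E-box repressor genes, Btrc, Fbxw11, Nono and Nampt, described below, did not pass on that scale. All 3 E-box repressor genes, whose proteins hold back CLOCK and BMAL1 beside PER and CRY, fell. Ciart was at 28.5, 30.3 and 24.7 CPM in CCI and 51.8, 58.2 and 62.5 CPM in control (-1.05 ± 0.16 SE, adjusted p = 0.00104). Its control replicate 5 lay between the other controls. Bhlhe40 fell by 0.95 and Bhlhe41 by 0.58 on the log2 scale. On log2(FPKM + 1) Bhlhe41 was at 0.02, below the median gene at 0.42. Bhlhe41 was also at 0.02 with abundance added to the length and GC trend. The Bhlhe41 call was also lost without any one CCI library (adjusted p from 0.0559 to 0.102), and that of Bhlhe40 with abundance added to the trend (-0.49, adjusted p = 0.0982). These 3 genes, like Nr1d1 and Dbp, are known as E-box targets of CLOCK and BMAL1, as are Per1, Per2 and Cry2.

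Of 3 other D-box genes 1 rose, 1 fell and 1 did not pass. Tef, a relative of Dbp, was at 121, 114 and 119 CPM in CCI and 64.5, 51.9 and 53.3 CPM in control and rose (1.06 ± 0.15 SE, adjusted p = 0.0008), and it passed in all 15 alternatives. Hlf, the other relative, did not pass (-0.04 ± 0.15, adjusted p = 0.836). Nfil3, which encodes the repressor at D-boxes, was at 6.51, 7.12 and 6.55 CPM in CCI and 18.4, 8.86 and 22.0 CPM in control and fell (-1.29 ± 0.32 SE, adjusted p = 0.01). Nfil3, known to peak in the opposite phase to Dbp, was likewise lowest among controls in replicate 5.

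Among the ROR receptors, which activate Arntl at the elements where REV-ERB represses, Rora fell (-0.94 ± 0.19 SE, adjusted p = 0.0036). Rorb did not pass (0.45 ± 0.31, adjusted p = 0.256). Arntl2, which encodes a second partner of CLOCK, rose from 2.98 ± 0.804 to 9.63 ± 1.21 CPM (SD, n = 3; 1.68 ± 0.27 SE, adjusted p = 0.00143) and passed in all 15 alternatives.

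Of 8 genes that act on the turnover of PER and CRY, 1 rose, 3 fell and 4 did not pass. Csnk1e, which encodes casein kinase 1 epsilon, a PER kinase, rose by 1.01 ± 0.17 (adjusted p = 0.00161), while Csnk1d was at 0.03 ± 0.16 (adjusted p = 0.9). Csnk1e was at 0.31 with the length and GC trend removed (adjusted p = 0.0973). Btrc and Fbxw11, the genes of the F-box proteins that mark PER for degradation, fell by 1.19 and 1.39 on the log2 scale (Fbxw11 was at -0.61 with abundance added to the length and GC trend, adjusted p = 0.0732), and the kinase gene Gsk3b fell by 1.86. Gsk3b was at 6634 CPM in control replicate 5 and 2356 and 2532 CPM in the other controls, against 1017 to 1105 CPM in CCI, and was at -1.23 without that library.

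Among 5 corepressors and cofactors, Ncor1, which REV-ERB recruits, rose (1.19 ± 0.18 SE, adjusted p = 0.000995), as did the deacetylase gene Sirt1 (0.77 ± 0.21, adjusted p = 0.0153), and Nono fell (-0.94 ± 0.15, adjusted p = 0.0011). Nono was at -0.13 with abundance added to the length and GC trend (adjusted p = 0.448). Sirt1 did not pass without CCI replicate 1 (adjusted p = 0.0652) or control replicate 4 (adjusted p = 0.0631). Ncor1 shares 12026 bp with Ttc19 on the opposite strand. Hdac3 and Timeless did not pass. Of 4 input genes Adcyap1r1, the receptor gene for the peptide PACAP, rose by 0.65 ± 0.16 (adjusted p = 0.00804) and the kinase gene Sik1 by 0.65 ± 0.21 (adjusted p = 0.0312). Sik1 did not pass with the length and GC trend removed (0.23, adjusted p = 0.366), nor Adcyap1r1 (0.28, adjusted p = 0.13), and Sik1 passed without control replicate 5 but not without any other library. Of 4 output genes Wee1, a cell cycle kinase gene, was at 8.62, 9.04 and 10.1 CPM in CCI and 24.5, 24.0 and 23.9 CPM in control (-1.38 ± 0.17 SE, adjusted p = 0.000473). Nampt, the gene of an enzyme of NAD synthesis, fell by 0.98 on the log2 scale, Lonrf3 rose by 1.19 ± 0.44 (adjusted p = 0.0469, lost without 4 of the 6 libraries) and Usp2 did not pass (-0.32 ± 0.18).

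**Figure D5:**
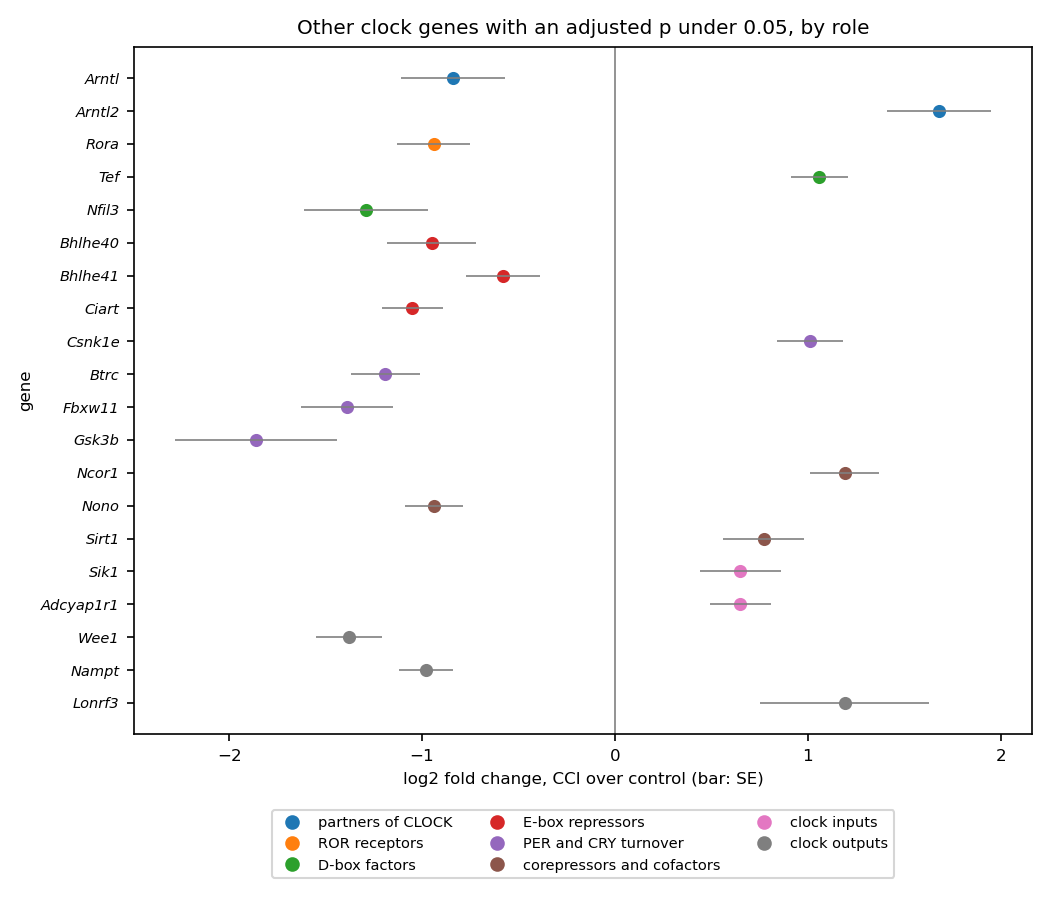
Log2 fold change (CCI over control, bar: SE) of the 8 other clock genes that rose and the 12 that fell, coloured by role. All 3 E-box repressor genes lie below 0, and the other roles with more than 1 call, apart from the clock inputs, hold calls on both sides of 0.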

How the data were processed

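Bulk RNA-seq of 6 mouse libraries was analysed from 1 table. The deposited values were raw read counts per gene and FPKM, per the file headers; the authors' FPKM equalled count over gene length and library total (largest relative error 1.3e-07). The submitters' processing notes name StringTie 2.2.1, HTSeq 0.9.1 and DESeq 1.38.3 beside fastp 0.22.0, HISAT2 2.1.0 and the build GRCm39; the strand setting is not given in the sources used here. Of 21959 genes, 4001 had no count and 51 no symbol.

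The test on counts was run in R 4.3.3 by edgeR 4.0.16 (TMM scaling, filterByExpr, quasi-likelihood test, Benjamini-Hochberg adjustment over 14259 genes, threshold 0.05), with CCI and control in 1 fit and no covariate. CPM are TMM-scaled. The fit was also run on simulated counts with the same spread for every gene and no outlying library. That run does not cover a library like control replicate 5. Alternatives were DESeq2 1.42.0 (size factors and Wald test), limma-voom and limma 3.58.1 on log2(FPKM + 1) and log2(FPKM + 0.1). Others were no filter, a stricter filter (10 counts in every library) and leaving out each library. A spline trend (5 degrees of freedom) on gene length and GC content, or on these and abundance, was also removed. That trend was fitted in each library to log2 CPM relative to the gene's mean over the libraries. GC content came from the longest GENCODE M21 transcript (GRCm38), for 14241 of the tested genes. Gene positions are on GRCm39, as in the table, and promoter positions on GRCm38.p6.

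The genes named are all 10 clock genes and the related clock genes that passed; other related genes are named where they help a reader, and some that were tested and counted are not reported here by name. The members and lists were chosen with earlier results of these data known. No labelled batch was given, and replicate libraries differed by more than counting noise, so each was counted as 1 sample. Counting depth limits low genes most, and intervals cover the spread between libraries only.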

Additional observations from a re-analysis of the deposited data

How the results depend on the processing

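No paired analysis was possible because the CCI libraries are numbered 1 to 3 and the control libraries 4 to 6, and no number is shared. Over 15 alternatives and 30 named genes, 449 single-gene values were computed: 372 kept their direction and their side of the threshold, 58 kept only the direction, 8 came to pass and 11 changed sign. The number of clock genes higher, 4 of 10, was 2 with the length and GC trend removed and 3 to 4 with 1 library left out. The number lower, 2 of 10, was 0 on log2(FPKM + 1) and 0 on log2(FPKM + 0.1), and 1 to 3 with 1 library left out. The evening-minus-dawn difference, -0.65, was -0.45 on log2(FPKM + 1) and -0.90 with the length and GC trend removed. Values that changed sign on log2(FPKM + 1) and log2(FPKM + 0.1) were Per3 (0.23 and 0.24), Nr1d2 (0.07 and 0.07), Dbp (0.04 and 0.11) and Bhlhe41 (0.02 and 0.02). With length, GC and abundance removed Nr1d2 was 0.01 and Bhlhe41 0.02, and with 1 library left out Per3 ranged from -0.93 (without control replicate 4) to 0.20 (without control replicate 5). The FPKM are scaled by library totals, under which the median gene lies at 0.42 with a pseudocount of 1 and 0.65 with 0.1. Relative to that median Per3 (-0.18 and -0.41), Nr1d2 (-0.35 and -0.58) and Dbp (-0.37 and -0.53) kept their sign. Bhlhe41 (0.02 and 0.02) also lay below that median on both scales. The cause of the other changes was not tested. Lonrf3 had too few counts for the stricter filter and has no value there.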
